A study of Homo sapiens with 24 samples.

Results

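The amino acid transporters of the SLC1, SLC3, SLC7, SLC36, SLC38 and SLC43 families were followed in clear cell renal carcinoma cells given interferon gamma (IFNγ), siRNA against PD-L1, or both. The members were the protein-coding genes of the count table whose symbol begins with one of these family names and a digit. This rule matched 38 of the 39321 genes of the table. One of them, SLC7A6OS, lies on the strand opposite to SLC7A6 and belongs to none of these carrier families, so 37 transporters were described. GENCODE release 44 holds 40 such transporters, of which SLC1A6, SLC7A3 and SLC38A8 are not analysed here.

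A498 and 786-O, both long-established lines from human renal tumors, were each transfected with a nontargeting siRNA pool (Cnsi) or a pool against PD-L1 (PD-L1si) at 20 nM. At 24 h after transfection, IFNγ, a cytokine of activated T and NK cells, was added at 50 ng/mL for 24 h or left out. Each line thus had 4 groups of 3 libraries, named Cnsi and PD-L1si without the cytokine, Cnsi IFNγ and PD-L1si IFNγ with it. In all, 24 libraries were made. All groups had been transfected, so no group stands for untouched cells. The labels call the PD-L1 groups a knockout, whereas the methods describe a transient siRNA pool. The labels do not say that the 3 libraries of a group came from separate cultures, so the p-values measure the spread between these samples, which may be technical.

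The lines are named here as the sample labels name them, and "A498 libraries" and "786-O libraries" mean the libraries labelled so. In the study's own displays the line names stand the other way round relative to these labels, and which of the namings is right was not tested. The lines were also run on different sequencing instruments, so line and instrument cannot be told apart, and base levels were not tested between the lines. The counts per library ran from 19256316 to 27907526 in A498 libraries and from 26807875 to 30350461 in 786-O libraries. CD274, the gene of PD-L1, had a log2 fold change with IFNγ in Cnsi cells of 5.25 ± 0.0687 (SE) in A498 and 3.89 ± 0.0891 in 786-O libraries. Under IFNγ, PD-L1si lowered it by a log2 fold change of -2.81 in A498 and -0.94 in 786-O libraries, so that it was lowered and not removed. The PD-L1si IFNγ libraries labelled 786-O held 30.6 to 32.7 CPM of CD274, a count scaled to library size, above the 3.87 to 4.18 CPM of Cnsi libraries without IFNγ. Those labelled A498 held 26.9 to 28.5 CPM, likewise above the 3.99 to 5.74 CPM of their Cnsi libraries without IFNγ. Of 8 kidney and renal carcinoma markers, 8 reached 1 CPM in A498 and 7 in 786-O libraries, where PAX2 stayed under 1 CPM. Of the 5 leukocyte markers in the table, 0 reached 1 CPM in either line, while the endothelial marker PECAM1 did so in 786-O libraries. A marker counts here if its mean reached 1 CPM in any group. The endothelial markers together ran from only 0.156 to 1.13 CPM over the 786-O groups.

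Amino acids cross the membrane through carriers that divide the work. The SLC7 light chains are exchangers that reach the cell surface bound to a heavy chain, SLC3A2 (4F2hc, CD98) or SLC3A1 (rBAT). With SLC3A2, SLC7A5 brings in leucine, tryptophan and other large neutral amino acids against glutamine, and SLC7A11 brings in cystine against glutamate and so feeds glutathione synthesis. SLC1A5 and the sodium-coupled SLC38A1 and SLC38A2 carry glutamine, SLC1A1 and SLC1A3 take up glutamate and aspartate, and SLC7A1 and SLC7A2 carry arginine and lysine. In the kidney, SLC3A1 with SLC7A9 recovers cystine from the tubule, and SLC7A7 with SLC3A2 releases cationic amino acids on the blood side. Several of these genes are known targets of ATF4, the transcription factor that responds to a lack of amino acids.

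The transporters took from 0.443% to 0.588% of the counts of an A498 library and from 0.153% to 0.257% of those of a 786-O library. Levels between genes are given as RPKM, which is the CPM divided by the length of the merged exons of the gene in kilobases. In the Cnsi libraries labelled A498, 13 of the 37 transporters reached 10 RPKM, 9 lay between 1 and 10, 9 lay under 1 and 6 were at 0. The corresponding numbers in 786-O libraries were 8, 8, 10 and 11. Of these 11, 8 were at 0 in every 786-O library and count as not measured there, as given below. The shares and numbers of the lines thus cover unlike sets of genes.

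SLC7A5 stood at the head of both lines without IFNγ, with 403 ± 2.87 RPKM (SD, n = 3) in A498 and 166 ± 3.68 RPKM in 786-O libraries. SLC1A5 came second in both, at 115 ± 1.10 and 124 ± 3.81 RPKM. The A498 order went on with SLC3A2 at 75.2 ± 0.942, SLC38A1 at 58.4 ± 1.33, SLC38A2 at 43.7 ± 1.59, SLC7A2 at 38.3 ± 0.894 and SLC7A1 at 34.3 ± 0.586 RPKM. Among the transporters measured in 786-O libraries, the third place went to SLC38A1 at 29.4 ± 1.12 RPKM. It was followed by SLC7A11 at 22.1 ± 0.267, SLC38A10 at 21.7 ± 0.935 and SLC38A2 at 20.3 ± 1.12 RPKM. SLC7A11 and SLC38A10 lay closer together than their spread there, whereas the 2 leading genes of each line lay far apart relative to theirs. The cystine carrier of the tubule was nearly silent, since SLC7A9 had 5 counts over the 12 A498 libraries and 71 over the 12 libraries labelled 786-O.

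Of the 37 transporters, 34 had a count above 0 in A498 libraries and 29 in 786-O libraries. SLC7A10, SLC7A13 and SLC7A14 were at 0 in every A498 library. SLC1A7, SLC36A3, SLC38A6, SLC3A2, SLC43A2, SLC43A3, SLC7A2 and SLC7A7 were at 0 in all 12 libraries labelled 786-O and count as not measured there. These 8 include SLC3A2, the shared heavy chain, which had from 9742 to 21581 counts in every A498 library. Rows of this kind are common in the table: 1475 genes with more than 1000 counts over the A498 libraries had 0 counts in every 786-O library, against 35 genes the other way. Why these rows are at 0 was not tested, and no absence of the heavy chain is read from them.

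**Figure D1:**
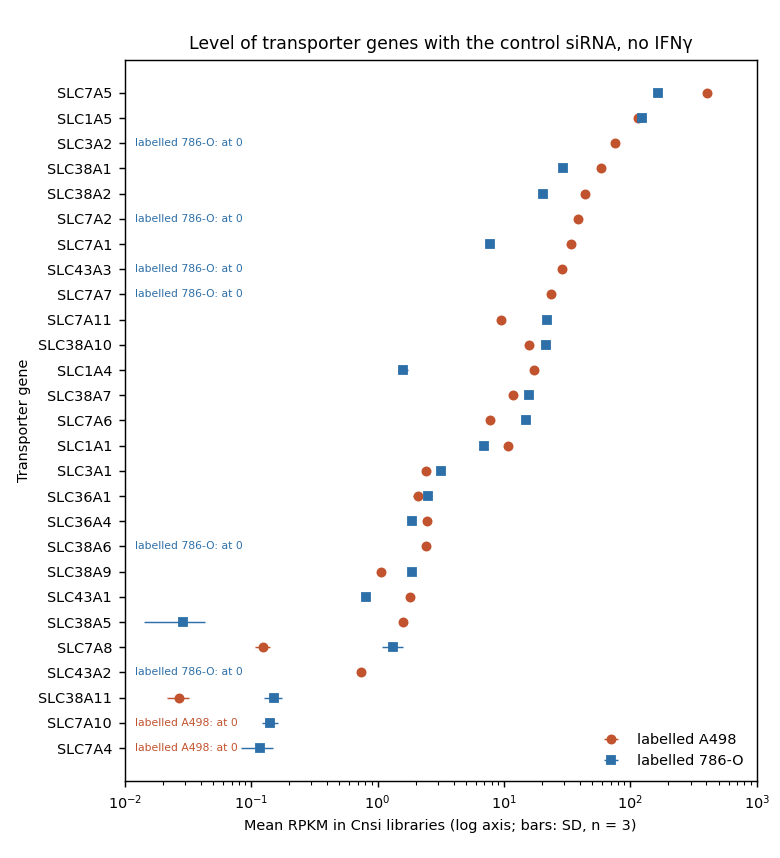
Mean level of the transporters with at least 0.1 RPKM in either line, in Cnsi libraries without IFNγ, in RPKM on a log axis, with bars of 1 SD (n = 3) and a note where all libraries were at 0. SLC7A5 and SLC1A5 lead in both lines, at 403 and 115 RPKM in A498 and at 166 and 124 RPKM in 786-O libraries.

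The promoter sequences of RefSeq (GRCh38.p14), from 250 bases before to 50 bases after each start, were searched for the letters of an ATF4 element. Of the 37 transporters, 29 had at least one promoter in the table, with 50 windows in all. SLC1A2, SLC38A3, SLC3A1, SLC43A3, SLC7A11, SLC7A13, SLC7A2 and SLC7A4 had none. The C/EBP-ATF element, to which ATF4 binds with a C/EBP partner, was searched as TGATGNAA and its reverse complement TTNCATCA, and was found in 6 of the 50 windows, of 6 genes, against 3.62% of all 35116 windows. The matches are printed because their genes recur in the comparisons below. They are letters in a window, and binding was not measured.

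Each C/EBP-ATF match is given 5′ to 3′ on the strand of its gene, in 30 bases, with the matched letters in capitals. The matches lie at chr2:64989381-64989410 (+) for SLC1A4, chr5:36596357-36596386 (+) for SLC1A3, chr11:62881719-62881748 (+) for SLC3A2, chr12:46266502-46266531 (-) for SLC38A1, chr13:29595663-29595692 (-) for SLC7A1 and chr19:46784893-46784922 (-) for SLC1A5.
SLC1A4: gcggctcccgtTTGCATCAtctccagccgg
SLC1A3: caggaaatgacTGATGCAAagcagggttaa
SLC3A2: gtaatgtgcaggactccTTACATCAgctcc
SLC38A1: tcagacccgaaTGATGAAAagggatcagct
SLC7A1: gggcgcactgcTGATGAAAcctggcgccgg
SLC1A5: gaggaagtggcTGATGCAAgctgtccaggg

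With IFNγ, the transporters past the threshold were as often higher as lower in A498 libraries and were mostly lower in 786-O libraries. A transporter is said to have risen or fallen where edgeR's quasi-likelihood test gave a Benjamini-Hochberg adjusted p under 0.05 over all genes of the line and its log2 fold change lay above 0.5 or below -0.5. Of 29 transporters tested in Cnsi cells labelled A498, 6 rose and 6 fell (41.4%), against 36.8% of all 20916 genes tested (18.2% higher and 18.5% lower). With a log2 fold change over 1, the 6 that passed there were all lower, namely SLC1A1, SLC36A2, SLC38A11, SLC38A4, SLC7A7 and SLC7A8. The share of all genes past this bound is not given, so no lean of the transporters is read from it. SLC38A4 and SLC7A8 stood under 1 CPM in every A498 library. SLC36A2 and SLC38A11 met the count filter, 10 counts in any group, only through groups without IFNγ, so their calls had to be decreases, and without such genes 6 rose and 4 fell of 26. Of 24 tested in Cnsi cells labelled 786-O, 1 rose and 5 fell (25%), against 18.5% of all 21209 genes (11.1% higher and 7.39% lower). At an unadjusted p under 0.05 by the same test, 5 were higher and 8 lower there. The same cut gave 11 higher and 9 lower in A498 libraries. SLC3A2, SLC43A2 and SLC43A3, which rose in A498 libraries, and SLC7A7, which fell, were not measured in 786-O libraries. The directions in the lines thus rest on unlike sets of genes. The median log2 fold change of the transporters was 0.0028 in A498 and -0.066 in 786-O libraries, beside -0.032 and 0.0049 over all genes. In bulk RNA, fewer cells with a transcript and less of it per cell cannot be told apart.

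The same contrast in PD-L1si cells gave 7 higher and 6 lower in A498 libraries (44.8%, against 33.5% of all genes, 17.6% higher and 15.9% lower), or 7 and 4 of 26 without such genes, and again 1 higher and 5 lower in 786-O libraries (25%, against 18.4% of all genes, 11% higher and 7.45% lower). SLC1A1 was the single transporter that passed in both lines, and it fell in both lines in both contrasts. A further 5 transporters in A498 libraries (SLC1A2, SLC1A7, SLC36A3, SLC7A4 and SLC7A9) and 5 in 786-O libraries (SLC1A2, SLC36A2, SLC38A4, SLC7A13 and SLC7A14) had too few counts to be tested, at most 14 and 23 over the 12 libraries of the line.

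SLC3A2 (ENSG00000168003.16, chromosome 11, 62856004 to 62888880, + strand), the heavy chain with most light chain partners, rose with IFNγ in A498 libraries. Its levels were 475, 487 and 480.1 CPM in Cnsi and 802, 837 and 842 CPM in Cnsi IFNγ libraries. In PD-L1si libraries they were 388, 410.3 and 388 CPM without and 718, 670.5 and 676 CPM with IFNγ. Every IFNγ library lay above every library without it, and the log2 fold changes were 0.78 ± 0.0393 (SE, adjusted p = 5.11e-19) with Cnsi and 0.80 ± 0.0395 with PD-L1si.

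SLC3A1 (chromosome 2, 44275458 to 44321494, + strand), the heavy chain of the tubular cystine carrier, passed in neither line. It stood at 16.6, 15.1 and 15.9 CPM in Cnsi and at 14.3, 17.9 and 15.1 CPM in Cnsi IFNγ libraries labelled A498, which overlap. In 786-O libraries it stood at 20.7, 20.3 and 20.8 CPM without and at 17.3, 15.4 and 13.9 CPM with IFNγ, which do not overlap. Its log2 fold change there was -0.41 ± 0.0813 (adjusted p = 0.000201), under the fold threshold.

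SLC7A5 (ENSG00000103257.9, chromosome 16, 87830023 to 87869507, - strand), the large neutral amino acid exchanger, led both lines without IFNγ and went different ways in them. In 786-O libraries it had 788, 777 and 811 CPM in Cnsi and 366, 322 and 312 CPM in Cnsi IFNγ libraries. With PD-L1si it had 838, 819 and 834 CPM without and 331, 347 and 327 CPM with IFNγ. It was thus lower with IFNγ by 2.38-fold with Cnsi (log2 -1.25 ± 0.0519, adjusted p = 1.4e-16) and by 2.48-fold with PD-L1si (log2 -1.31 ± 0.0519), and no IFNγ library reached the lowest library without it. Per length, it stood below SLC1A5 in the IFNγ libraries labelled 786-O, at 69.9 ± 6.03 against 146 ± 5.82 RPKM (SD, n = 3) with Cnsi and at 70.3 ± 2.17 against 120.1 ± 2.93 RPKM with PD-L1si. How the counting treated reads shared with pseudogene copies such as SLC7A5P1 was not tested, which leaves the level of SLC7A5 uncertain to that extent.

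In A498 libraries SLC7A5 had 1930.3, 1906 and 1929.7 CPM in Cnsi and 2224, 2184 and 2329 CPM in Cnsi IFNγ libraries. Those groups do not overlap, but the difference of 0.22 ± 0.0431 on the log2 scale was under the fold threshold (adjusted p = 2.58e-05). With PD-L1si it had 1596, 1644 and 1492 CPM without and 2200.4, 1933 and 2004 CPM with IFNγ, a log2 difference of 0.38 ± 0.0432.

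SLC7A11 (ENSG00000151012.13, chromosome 4, 138164097 to 138242349, - strand), the cystine and glutamate exchanger, fell with IFNγ in 786-O libraries. Its levels were 216, 211 and 212 CPM in Cnsi, 125, 121 and 113 CPM in Cnsi IFNγ, 89.6, 102 and 95.03 CPM in PD-L1si, and 50.05, 50.6 and 53.5 CPM in PD-L1si IFNγ libraries. The 4 groups form a ladder without overlap, with log2 fold changes for IFNγ of -0.83 ± 0.0514 with Cnsi (adjusted p = 6.88e-13) and -0.89 ± 0.0541 with PD-L1si. In A498 libraries the levels were 88.8, 92.8 and 92.9 CPM in Cnsi, 76.9, 82.8 and 77.7 CPM in Cnsi IFNγ, 52.5, 51.3 and 49.0 CPM in PD-L1si, and 52.9, 61.1 and 54.3 CPM in PD-L1si IFNγ libraries. There the IFNγ differences of -0.21 ± 0.0485 with Cnsi and 0.14 ± 0.0525 with PD-L1si were under the fold threshold. An antisense gene, SLC7A11-AS1, overlaps this locus. The counting is stated to use strand, but whether its setting matches the kit was not checked, so antisense reads in these counts are not excluded. Opposite-strand genes also overlap other transporters, among them SLC1A3 (SLC1A3-AS1), SLC1A4 (LINC02245) and SLC38A2 (SLC38A2-AS1).

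Among the other light chains, SLC7A7 and SLC7A8 fell in A498 libraries. SLC7A7, which exchanges cationic for neutral amino acids, had a log2 fold change of -1.36 ± 0.0478 with Cnsi and -1.08 ± 0.0469 with PD-L1si. SLC7A8, a neutral exchanger that stood under 1 CPM in every A498 library, had -2.09 ± 0.373 and -2.84 ± 0.411. SLC7A6, which exchanges the same amino acids as SLC7A7, had -0.02 ± 0.0483 in A498 and 0.03 ± 0.0448 in 786-O libraries with Cnsi.

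**Figure D2:**
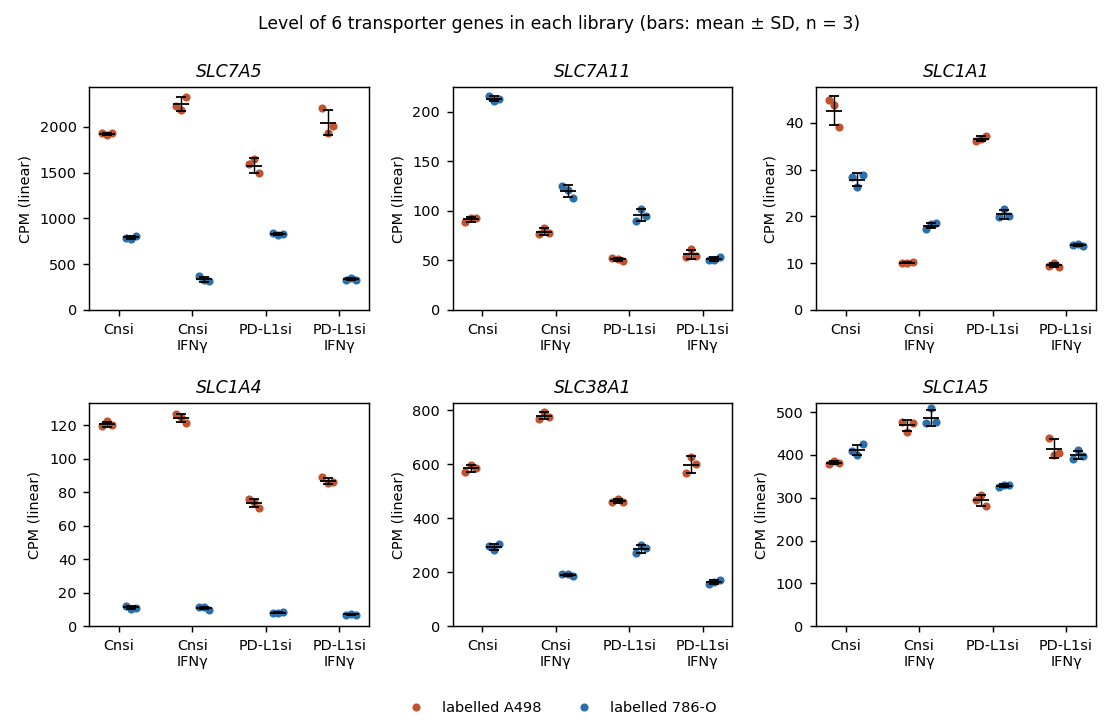
Level of 6 transporters in each of the 24 libraries, in CPM, by group and line. Each point is 1 library, and the black marks are the mean ± SD of the 3 libraries of a group. With IFNγ, SLC7A5 goes from at least 777 CPM to at most 366 CPM in 786-O libraries, while SLC1A1 lies lower with IFNγ in both lines.

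SLC1A1 (ENSG00000106688.12, chromosome 9, 4490468 to 4587469, + strand), the glutamate, aspartate and cysteine carrier of the renal tubule, fell with IFNγ in both lines. A498 libraries had 44.9, 43.8 and 39.1 CPM in Cnsi and 9.98, 10.0 and 10.2 CPM in Cnsi IFNγ, with 36.0, 36.6 and 37.1 CPM in PD-L1si and 9.47, 9.97 and 9.11 CPM in PD-L1si IFNγ. Its level was lower by 4.24-fold with Cnsi (log2 -2.08 ± 0.0663, adjusted p = 6.16e-25) and by 3.85-fold with PD-L1si (log2 -1.94 ± 0.0694).

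The fall of SLC1A1 was smaller in 786-O libraries. They had 28.4, 26.2 and 28.8 CPM in Cnsi and 17.3, 18.3 and 18.5 CPM in Cnsi IFNγ, with 19.8, 21.5 and 20.1 CPM in PD-L1si and 13.8, 14.1 and 13.6 CPM in PD-L1si IFNγ. The IFNγ libraries lay below the libraries without it at each siRNA, by -0.62 ± 0.0656 (adjusted p = 1.7e-08) and -0.56 ± 0.0685 on the log2 scale. SPATA6L overlaps SLC1A1 on the opposite strand, as PREPL does SLC3A1.

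SLC1A3, another glutamate and aspartate carrier, was the single transporter to rise with IFNγ in 786-O libraries. It had 1.69, 1.11 and 1.44 CPM in Cnsi, 3.94, 3.26 and 3.15 CPM in Cnsi IFNγ, 1.25, 1.70 and 1.54 CPM in PD-L1si, and 3.84, 4.07 and 4.33 CPM in PD-L1si IFNγ libraries. The groups with and without IFNγ do not overlap, and the log2 fold changes were 1.28 ± 0.169 (adjusted p = 7.61e-07) and 1.44 ± 0.162. A498 libraries held at most 1.01 CPM of it, and the IFNγ differences there were -0.02 ± 0.319 and 0.01 ± 0.252.

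The glutamine exchanger SLC1A5 (chromosome 19, 46774883 to 46788594, - strand) passed in no comparison, since each of its differences was under the fold threshold. A498 libraries had 379, 386 and 381 CPM in Cnsi and 478, 455 and 475 CPM in Cnsi IFNγ, and 786-O libraries had 409.8, 400.2 and 425 CPM and 474, 509 and 477 CPM. The libraries with IFNγ lay above those without in both lines, with log2 differences of 0.30 ± 0.0416 (adjusted p = 1.19e-07) and 0.24 ± 0.0445 (adjusted p = 8.58e-05). In PD-L1si cells these differences were 0.49 ± 0.042 in A498, just under the fold threshold, and 0.29 ± 0.0446 in 786-O libraries. SLC1A4, the related exchanger of alanine, serine and cysteine, had 0.05 ± 0.041 and -0.04 ± 0.0869 in Cnsi cells.

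Of the sodium-coupled SLC38 carriers, 10 were tested in A498 libraries. SLC38A2, the glutamine and alanine carrier that cells make more of when amino acids are short, rose in them by 0.64 ± 0.0497 with Cnsi and 0.77 ± 0.0501 with PD-L1si on the log2 scale. SLC38A5, a glutamine carrier of the system N type, rose by 0.77 ± 0.0876 and 0.87 ± 0.103. SLC38A4, at under 1 CPM, fell with Cnsi by -2.06 ± 0.583. Its value with PD-L1si was -1.21 ± 0.476, a call that was lost with DESeq2 (adjusted p = 0.0860) and without PD-L1si replicate 2 or 3 or PD-L1si IFNγ replicate 2 or 3 (adjusted p by edgeR up to 0.0981). SLC38A11, also under 1 CPM, was tested only because of its groups without IFNγ and is given by its counts. Of these, 15 counts in Cnsi stood against 1 count in Cnsi IFNγ libraries, a ratio of 14.03 (exact 95% interval 2.158 to 590.5), and 23 in PD-L1si stood against 3 in PD-L1si IFNγ libraries, a ratio of 5.975 (1.805 to 31.08). These intervals cover counting error alone.

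SLC38A1, a glutamine carrier, was not named by the rule for values per library. It is given because it is the third most abundant of the transporters measured in 786-O libraries. Its levels there were 296, 282 and 304 CPM in Cnsi, 192, 193 and 186 CPM in Cnsi IFNγ, 269.6, 301 and 288 CPM in PD-L1si, and 157, 163 and 171 CPM in PD-L1si IFNγ. It fell with IFNγ by -0.63 ± 0.0492 and -0.80 ± 0.0494 on the log2 scale. A498 libraries ran the other way, from 571, 598 and 586 CPM in Cnsi to 767, 793 and 776 CPM in Cnsi IFNγ, a difference of 0.41 ± 0.0395 that was under the fold threshold. Of the 8 SLC38 carriers tested in 786-O libraries, SLC38A1 alone passed. SLC38A9, the lysosomal arginine sensor, had 0.06 ± 0.0868 in A498 and 0.37 ± 0.075 in 786-O libraries with Cnsi.

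The facilitative carriers of the SLC43 family rose with IFNγ in A498 libraries in 2 of 3 cases. SLC43A2, for large neutral amino acids, had 7.86, 7.63 and 8.09 CPM in Cnsi, 13.8, 15.7 and 15.7 CPM in Cnsi IFNγ, 6.06, 6.06 and 4.95 CPM in PD-L1si, and 12.5, 10.7 and 10.9 CPM in PD-L1si IFNγ libraries. Its log2 fold changes of 0.94 ± 0.0872 (adjusted p = 1.14e-11) and 1.00 ± 0.0977 came from groups that do not overlap. SLC43A3, a member by sequence that carries purine nucleobases and not amino acids, had 132, 128 and 130.1 CPM in Cnsi, 189, 186 and 193 CPM in Cnsi IFNγ, 52.1, 54.0 and 54.9 CPM in PD-L1si, and 114, 107 and 112 CPM in PD-L1si IFNγ libraries. It rose by 0.54 ± 0.04 with Cnsi and by 1.05 ± 0.0434 with PD-L1si. SLC43A1, also a large neutral carrier, had 0.00 ± 0.102 in A498 libraries with Cnsi, and fell by -0.85 ± 0.167 in 786-O libraries at under 4 CPM.

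Of the cationic and proton-coupled carriers, SLC7A1, the main arginine carrier, had 0.43 ± 0.041 with Cnsi and rose by 0.66 ± 0.0414 with PD-L1si in A498 libraries, against 0.08 ± 0.0549 and 0.00 ± 0.0565 in 786-O libraries. SLC7A2, a second arginine carrier, had 0.36 ± 0.042 and 0.47 ± 0.0419 in A498 libraries. SLC36A1, which exports small amino acids from the lysosome with protons, rose by 0.71 ± 0.0672 and 0.71 ± 0.0737. SLC36A2, a glycine and proline carrier, was at the limit of detection, with 3, 1 and 6 counts in Cnsi, 6, 4 and 2 counts in PD-L1si and 0 counts in all 6 IFNγ libraries labelled A498. Against a floor of 3 counts over a group, it was at least 3.117-fold lower with IFNγ at each siRNA. It was tested only because of its groups without IFNγ, so no p is given for it.

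**Figure D3:**
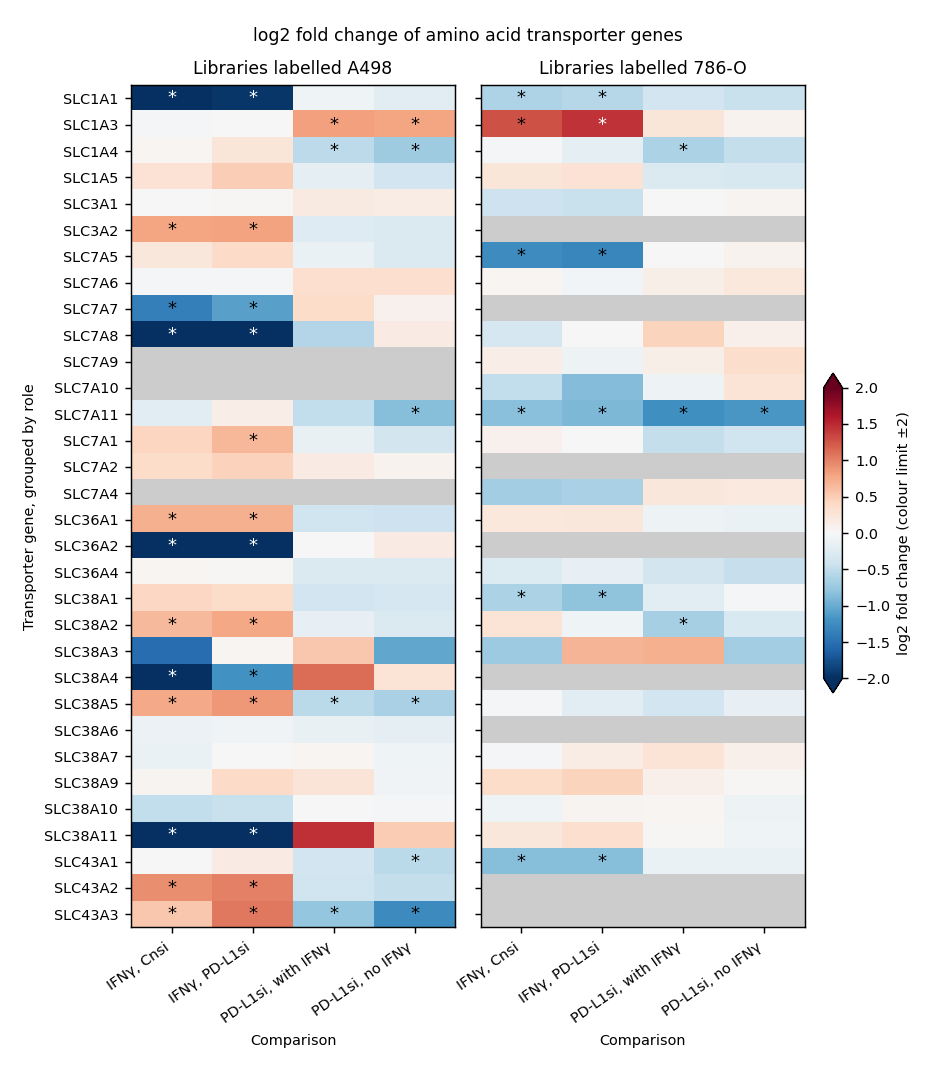
Log2 fold changes of the transporters tested in at least 1 line, in 4 comparisons per line, as colors from blue (lower) to red (higher) with limits at -2 and 2. An asterisk marks a transporter past the threshold and gray one that was not tested, and SLC36A2 and SLC38A11 in A498 libraries were tested only because of their groups without IFNγ. SLC7A11 is lower with PD-L1si without IFNγ in both lines, at -0.85 and -1.16.

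PD-L1si was compared with Cnsi at a fixed IFNγ state. No other siRNA against PD-L1 was used, so an effect of lowering PD-L1 and an off-target effect of the pool cannot be told apart. Nearly all calls were decreases. Without IFNγ, 1 transporter rose and 5 fell of 29 in A498 libraries (20.7%, against 8.48% of all genes, 2.87% higher and 5.6% lower), and 1 of 24 fell in 786-O libraries (4.17%, against 2.81% of all genes, 1.19% higher and 1.63% lower). Under IFNγ, 1 rose and 3 fell in A498 libraries (13.8%, against 10.1% of all genes, 4.36% higher and 5.75% lower), and 3 fell in 786-O libraries (12.5%, against 3.03% of all genes, 1.29% higher and 1.74% lower). The number that rose in 786-O libraries was 0 in both comparisons by edgeR and also by DESeq2, with 1 transporter higher at an unadjusted p under 0.05 without IFNγ and 3 under IFNγ. The median over the transporters was -0.28 without and -0.15 with IFNγ in A498 libraries, beside -0.0031 and 0.011 over all genes. In 786-O libraries it was -0.096 and -0.045, beside -0.00033 and 0.0059. Each siRNA comparison shares its libraries with an IFNγ comparison above, so that their fold changes are not independent.

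SLC7A11, whose values per library stand above, fell with PD-L1si in both lines without IFNγ. The log2 fold change was -0.85 ± 0.0498 in A498 libraries (1.798-fold lower, adjusted p = 5.46e-16) and -1.16 ± 0.0518 in 786-O libraries (2.23-fold lower, adjusted p = 3.59e-14). Under IFNγ it fell in 786-O libraries by -1.22 ± 0.0541, whereas the value of -0.50 ± 0.0512 in A498 libraries lay just inside the fold threshold (adjusted p = 6.42e-10). That A498 value passed at -0.51 with RLE factors, with DESeq2 and with no filter on counts, and at -0.50 with protein-coding genes alone. No library with PD-L1si reached the lowest library with Cnsi at the same IFNγ state in either line.

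SLC1A4 (ENSG00000115902.11, chromosome 2, 64988477 to 65023865, + strand) fell with PD-L1si under IFNγ in both lines. In A498 libraries it had 119, 122 and 120.0 CPM in Cnsi, 127, 125 and 122 CPM in Cnsi IFNγ, 76.0, 74.1 and 70.9 CPM in PD-L1si, and 88.8, 85.4 and 86.2 CPM in PD-L1si IFNγ. In 786-O libraries it had 12.1, 10.5 and 10.7 CPM, 11.3, 11.3 and 9.89 CPM, 7.91, 8.03 and 8.13 CPM, and 6.90, 7.34 and 6.82 CPM in the same order. The PD-L1si libraries lay below the Cnsi libraries throughout, with log2 fold changes under IFNγ of -0.52 ± 0.0424 (adjusted p = 2.54e-12) and -0.63 ± 0.0921 (adjusted p = 3.06e-05). Without IFNγ the values were -0.71 ± 0.0421 in A498 libraries and -0.47 ± 0.0887 in 786-O libraries, the latter under the fold threshold.

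SLC43A3 had the largest decrease with PD-L1si in A498 libraries, by -1.28 ± 0.0428 without IFNγ (2.42-fold lower) and by -0.77 ± 0.0407 with it. SLC38A5 fell there by -0.65 ± 0.102 and -0.54 ± 0.0883, and SLC43A1 by -0.54 ± 0.107 without IFNγ. SLC38A2 fell with PD-L1si under IFNγ in 786-O libraries, from 157, 162 and 157 CPM to 99.4, 98.02 and 104 CPM (log2 -0.66 ± 0.0482). Without IFNγ it was also lower there, at 139, 133 and 124 CPM in Cnsi and 106, 108 and 105 CPM in PD-L1si libraries. Those groups do not overlap, but the difference did not pass. SLC7A5 did not pass, with -0.29 ± 0.0432 and -0.13 ± 0.0431 in A498 libraries and 0.07 ± 0.0508 and 0.01 ± 0.0514 in 786-O libraries without and with IFNγ. SLC3A2 in A498 libraries had -0.28 ± 0.0393 and -0.26 ± 0.039, SLC1A5 had -0.38 ± 0.0419 and -0.18 ± 0.0417, and SLC1A5 in 786-O libraries had -0.33 ± 0.0446 and -0.28 ± 0.0445, all under the fold threshold.

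The single transporter that rose with PD-L1si was SLC1A3 in A498 libraries, from 0.479, 0.437 and 0.598 CPM in Cnsi to 0.775, 1.01 and 0.855 CPM in PD-L1si, and from 0.545, 0.388 and 0.577 CPM to 0.873, 1.00 and 0.775 CPM under IFNγ. The log2 fold changes were 0.79 ± 0.273 (adjusted p = 0.0258) and 0.82 ± 0.293 (adjusted p = 0.0283), on 10 to 24 counts per library. Neither passed with DESeq2, at adjusted p of 0.0932 and 0.106, or without the filter on counts. The call without IFNγ was lost without Cnsi replicate 1 (0.75, adjusted p = 0.0746), Cnsi replicate 2 (0.69, adjusted p = 0.0980) or PD-L1si replicate 2 (0.70, adjusted p = 0.0825). The call under IFNγ was lost without Cnsi IFNγ replicate 2 (0.65, adjusted p = 0.135) or PD-L1si IFNγ replicate 1 (0.82, adjusted p = 0.0575) or 2 (0.73, adjusted p = 0.0976).

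The interaction of siRNA and IFNγ asks whether the IFNγ effect differs between Cnsi and PD-L1si cells. In A498 libraries 1 of 29 transporters passed, higher (3.45%, against 2.45% of all genes, 1.81% higher and 0.645% lower). It was SLC43A3, whose IFNγ effect was larger with PD-L1si by 0.51 ± 0.0589 on the log2 scale (adjusted p = 1.04e-07), just past the fold threshold. The value was 0.49, under the threshold, with RLE factors, DESeq2, no filter on counts or protein-coding genes alone, and 0.47 to 0.50 without Cnsi replicate 3, Cnsi IFNγ replicate 1 or 2, PD-L1si replicate 1 or 2, or PD-L1si IFNγ replicate 1, each of which ended the call. SLC7A11 had 0.35 ± 0.0715 (adjusted p = 0.000998) and SLC7A7 0.28 ± 0.0668 (adjusted p = 0.00492), both under it. In all, 6 transporters there had an adjusted p under 0.05 by edgeR, and the share of all genes at this cut is not given. In 786-O libraries edgeR and DESeq2 each called 0 of 24 (0.099% of all genes by edgeR, 0.0377% higher and 0.0613% lower), and 2 had an unadjusted p under 0.05. By edgeR, 1 had an adjusted p under 0.05, with its value under the fold threshold. The mean of SLC38A2 in 786-O libraries went from 132 to 159 CPM with IFNγ in Cnsi cells. With PD-L1si it went from 107 to 101 CPM, and neither pair of groups overlaps.

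Differences between the lines in the IFNγ effect were tested in 1 model of all 24 libraries over the 17999 genes that passed the filter in both lines, as 786-O minus A498. Of the 21 transporters tested, 4 were higher and 5 lower (42.9%, against 28.4% of all genes, 15.1% higher and 13.2% lower). The lower ones were SLC7A5 by -1.48 ± 0.0701 (adjusted p = 1.57e-20), SLC38A1 by -1.05 ± 0.0638, SLC43A1 by -0.86 ± 0.191, SLC7A11 by -0.63 ± 0.0734 and SLC36A1 by -0.51 ± 0.113. The higher ones were SLC1A1 by 1.45 ± 0.0912, whose fall was smaller in 786-O libraries, SLC1A3 by 1.29 ± 0.356, SLC7A8 by 1.75 ± 0.417 and SLC38A11. The last of these was tested on the A498 side only because of its groups without IFNγ, with 1 count in Cnsi IFNγ libraries, and its fitted value is no measure of size. Without transporters tested in this way in either line, 3 were higher and 5 lower of 18.

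For SLC7A5 and SLC38A1 the effects themselves had opposite signs in the lines. The log2 differences were 0.22 and 0.41 in A498 libraries, under the fold threshold, against -1.25 and -0.63 in 786-O libraries. For the glutamine exchanger SLC1A5 the difference between lines, at -0.06 ± 0.0608, did not pass (adjusted p = 0.442). For PD-L1si under IFNγ, 1 of 21 transporters differed (4.76%, against 5.6% of all genes, 2.96% higher and 2.64% lower), which was SLC7A11 by -0.71 ± 0.0772 (adjusted p = 6.32e-09). SLC1A4, which fell in both lines, differed by -0.10 ± 0.0896 (adjusted p = 0.548).

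**Figure D4:**
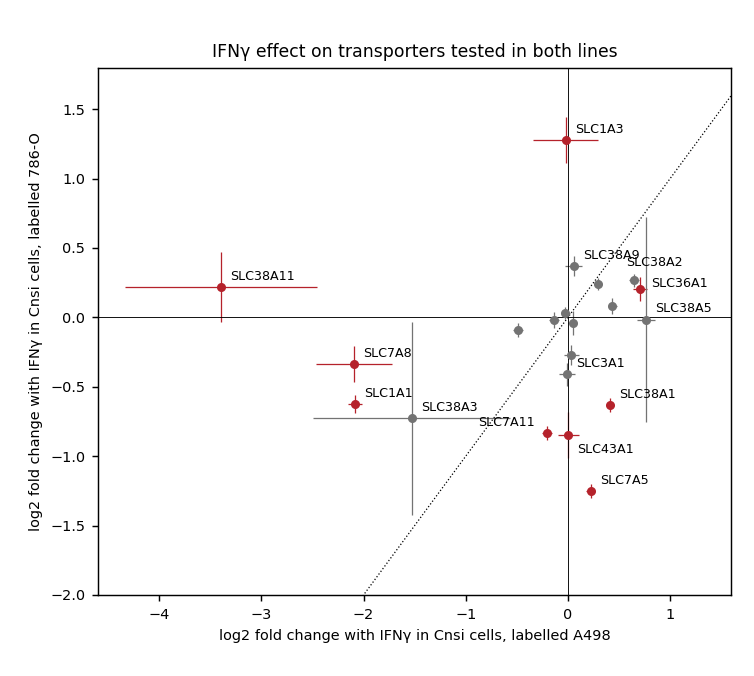
Log2 fold change with IFNγ in Cnsi cells of the 21 transporters tested in both lines, labelled A498 on the horizontal and labelled 786-O on the vertical axis, with bars of 1 SE. The dotted line marks equal effects, and red points are the 9 transporters whose difference between lines passed the test, among them SLC7A5 at 0.22 and -1.25 and SLC1A1 at -2.08 and -0.62. SLC38A11, also red, rests on 1 count in Cnsi IFNγ libraries labelled A498.

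Transporters that passed in none of the 4 comparisons numbered 12 of 29 in A498 and 16 of 24 in 786-O libraries, against 52.6% and 74.4% of all genes tested. The 12 were SLC1A5, SLC36A4, SLC38A1, SLC38A10, SLC38A3, SLC38A6, SLC38A7, SLC38A9, SLC3A1, SLC7A2, SLC7A5 and SLC7A6. The 16 were SLC1A5, SLC36A1, SLC36A4, SLC38A10, SLC38A11, SLC38A3, SLC38A5, SLC38A7, SLC38A9, SLC3A1, SLC7A1, SLC7A10, SLC7A4, SLC7A6, SLC7A8 and SLC7A9. SLC38A3 had both the lowest and the highest value over these sets, from -1.53 ± 0.962 to 0.70 ± 0.706, at a handful of counts, where depth sets the limit.

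Genes that go with these transporters were described from 4 lists. Of 26 genes of the ATF4 amino acid response tested in A498 libraries, 19 rose with IFNγ in Cnsi cells, with a median of 0.82, beside 18.2% and -0.032 over all genes. The largest were WARS1, the tryptophan-charging enzyme that is itself an IFNγ target, at 5.04 ± 0.0458 and the stress factor ATF3 at 3.55 ± 0.0575. With PD-L1si without IFNγ, 14 of the 26 fell (5.6% of all genes), among them ATF3 by -1.26 ± 0.0789 and WARS1 by -1.25 ± 0.0434. The same comparison in 786-O libraries had 1 of 23 lower (1.63% of all genes), with a median of -0.15 beside -0.54 in A498 libraries. In 786-O libraries 9 of 23 rose and 1 fell with IFNγ, against 11.1% and 7.39% of all genes, with WARS1 at 5.41 ± 0.0612, ATF3 at 2.30 ± 0.0613 and TRIB3 at -1.12. Under IFNγ, PD-L1si lowered 3 of these genes in each line, against 5.75% of all genes in A498 and 1.74% in 786-O libraries, which were ATF3, NUPR1 and STC2 in A498 and CHAC1, ASNS and DDIT3 in 786-O libraries.

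Of the 6 transporters with a C/EBP-ATF match printed above, SLC3A2 and SLC7A1 rose with IFNγ in A498 libraries with at least 1 siRNA, and SLC1A3, SLC1A4, SLC1A5 and SLC38A1 did not pass. Of 18 tested transporters whose windows held no match, 4 rose there (SLC36A1, SLC38A2, SLC38A5 and SLC43A2) and 6 fell, against 21.3% and 22.1% of all genes. In 786-O libraries, where 5 transporters with a match were tested, SLC1A3 rose, SLC38A1 fell, and SLC1A4, SLC1A5 and SLC7A1 did not pass. Of 15 without a match, the 3 that passed there (SLC1A1, SLC43A1 and SLC7A5) fell, against 13.3% of all genes higher and 10% lower.

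Of 16 genes of the NRF2 and glutathione list in A498 libraries, 5 rose and 3 fell with IFNγ, against 18.2% and 18.5% of all genes. OSGIN1 rose by 1.99 ± 0.0804 and the thioredoxin reductase TXNRD1 by 1.28 ± 0.0429, while the falls include the iron exporter SLC40A1, with 33 counts in Cnsi and 3 in Cnsi IFNγ libraries, which was tested only because of its groups without IFNγ. In 786-O libraries 1 of 13 passed, against 18.5% of all genes, which was the heme oxygenase HMOX1, lower by -0.60 ± 0.0452. With PD-L1si without IFNγ, 1 rose and 2 fell in A498 libraries (2.87% and 5.6% of all genes) and 1 rose and 1 fell in 786-O libraries (1.19% and 1.63%). SLC40A1 was higher in A498 libraries by 0.93 ± 0.338, and HMOX1 in 786-O libraries by 1.02 ± 0.0447. ABCC1, which exports glutathione conjugates, fell with PD-L1si in both lines, by -0.86 ± 0.0417 without and -1.17 ± 0.0429 with IFNγ in A498 and by -0.89 ± 0.0558 and -0.73 ± 0.0556 in 786-O libraries.

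Of 24 genes of amino acid sensing by mTORC1 in A498 libraries, 3 rose and 3 fell with IFNγ, against 18.2% and 18.5% of all genes, with the Rag GTPase RRAGD highest at 1.94 ± 0.158. The falls include the sestrin SESN3, likewise tested only because of its groups without IFNγ, with 32 counts in Cnsi and 4 in Cnsi IFNγ libraries. In 786-O libraries 2 of 21 rose, RRAGC by 1.11 ± 0.0718 and FNIP1 by 0.57 ± 0.0587, and SESN1 fell by -0.54 ± 0.066, against 11.1% and 7.39% of all genes. Of 11 other amino acid carriers in A498 libraries, 3 rose and 2 fell, against the same 18.2% and 18.5%, with the mitochondrial glutamate carrier SLC25A22 at 1.90 ± 0.0602 and the aromatic amino acid carrier SLC16A10 at -2.51 ± 0.325. In 786-O libraries 2 of 10 rose and 3 fell, against 11.1% and 7.39%, with SLC25A22 at 1.12 ± 0.0514, SLC16A10 at -1.39 ± 0.36 and SLC6A17 among the falls, the last tested only because of its groups without IFNγ, with 22 counts in Cnsi and 4 in Cnsi IFNγ libraries.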

How the data were processed

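Poly(A) RNA of 24 libraries was prepared with a stranded kit. The authors trimmed reads (Trimmomatic), aligned them to GRCh38 (HISAT2) and counted them on GENCODE genes (featureCounts, stranded mode), and the deposited values are raw counts per gene, without normalization. Whether the strand setting of the counting matches the kit was not checked. A total of 0 columns had no sample. Names, positions and lengths were taken from GENCODE release 44, which matched 39148 IDs and missed 173.

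A gene was tested if the 3 libraries of any group together held 10 or more of its counts, in R 4.3.3 with edgeR 4.0.16 (TMM, robust quasi-likelihood fit, 4 groups per line), and DESeq2 1.42.0 was an alternative. CPM are TMM-scaled. The standard error is the log2 fold change divided by the root of F. The scripts were tested on simulated data. Within groups, all 24 replicate pairs differed by more than the sampling noise (lowest chi-square per degree of freedom 1.628).

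Values per library were given, by rule, for both heavy chains, SLC1A5, SLC7A5, SLC7A11, transporters that rose in both lines or fell in both, and the highest and lowest of those past the threshold in each comparison, which made 11 genes. Of the other lists, the 2 genes past the threshold with the largest change were named, and TXNRD1, TRIB3, SESN1, STC2, DDIT3, SLC25A22 in 786-O libraries and SLC38A1 among the transporters after their values were seen. The members, the lists and the rules were chosen with earlier results of these data known.

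A second promoter element was also searched and is not reported here. The alternatives were RLE factors, DESeq2, no filter, protein-coding genes alone, no fold threshold, a log2 fold change over 1, a replicate block, and leaving out each library in turn.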

Additional observations from a re-analysis of the deposited data

Results flagged for a closer look

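The IFNγ effect with Cnsi differed between the lines, by a test of the difference itself (786-O minus A498, log2), for SLC1A3 at 1.29, SLC7A8 at 1.75, SLC7A5 at -1.48, SLC1A1 at 1.45, SLC38A1 at -1.05, SLC36A1 at -0.51, SLC43A1 at -0.86, SLC7A11 at -0.63 and SLC38A11 at 3.67. SLC38A11 was tested on the A498 side only because of its groups without IFNγ and had 1 count in Cnsi IFNγ libraries there, so its fitted value is no measure of size. Line and sequencing instrument cannot be told apart in these differences. The effect of PD-L1si under IFNγ differed in the same way for SLC7A11, at -0.71. Within A498 libraries, the IFNγ effect on SLC43A3 differed between the siRNAs by 0.51 (interaction test), a call that was lost with RLE factors, DESeq2, no filter or protein-coding genes alone.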

How the results depend on the processing

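The numbers of transporters past the threshold stayed within 1.5 times their main value with RLE factors, DESeq2, no filter and protein-coding genes alone, except the interaction in A498 libraries, which gave 0 under each of these in place of 1, with SLC43A3 at 0.49 in each. On the adjusted p-value alone the numbers in A498 libraries were 20 and 21 for IFNγ with Cnsi and PD-L1si, 17 and 19 for PD-L1si without and with IFNγ, and 6 for the interaction. In 786-O libraries they were 12, 11, 8, 10 and 1, and for the differences between lines 15 for IFNγ and 5 for PD-L1si. With a log2 fold change over 1 they were 6, 8, 1, 0 and 0 in A498 libraries, 2 and 2 for IFNγ and 1 for PD-L1si under IFNγ in 786-O libraries, and 0 for the difference in PD-L1si. The shares of all genes at these other thresholds are not given. These numbers therefore show only how the calls depend on the threshold, and not whether transporters passed more often than other genes.

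Leaving out each library gave 12 to 13 and 12 to 14 for IFNγ with Cnsi and PD-L1si, 5 to 6 and 3 to 5 for PD-L1si without and with IFNγ, and 0 to 1 for the interaction in A498 libraries. In 786-O libraries the ranges were 6 to 6, 6 to 7, 1 to 2, 3 to 4 and 0 to 0, and for the differences between lines 8 to 9 and 1 to 2. The SLC43A3 interaction was lost without Cnsi replicate 3, Cnsi IFNγ replicate 1 or 2, PD-L1si replicate 1 or 2, or PD-L1si IFNγ replicate 1, at 0.47 to 0.50. The difference between lines in SLC36A1 was lost without A498 Cnsi replicate 1 (-0.44), A498 Cnsi IFNγ replicate 1 (-0.50), 786-O Cnsi replicate 1 (-0.48) or 3 (-0.49), or 786-O Cnsi IFNγ replicate 1 (-0.39). SLC38A4 with IFNγ in PD-L1si cells was lost with DESeq2 (-1.25, adjusted p = 0.0860) and without PD-L1si replicate 2 (-1.13) or 3 (-1.18) or PD-L1si IFNγ replicate 2 (-1.10) or 3 (-1.05). SLC43A1 with PD-L1si without IFNγ in A498 libraries was lost without PD-L1si replicate 1 (-0.49). SLC7A11 with PD-L1si under IFNγ in A498 libraries passed without Cnsi replicate 3, Cnsi IFNγ replicate 1 or 3, any PD-L1si replicate or PD-L1si IFNγ replicate 2, at -0.50 to -0.56. SLC1A5 with IFNγ in PD-L1si cells labelled A498 passed without PD-L1si replicate 2 or PD-L1si IFNγ replicate 2 or 3 (0.51 to 0.52), and SLC43A2 with PD-L1si without IFNγ passed without PD-L1si replicate 1 (-0.51). In 786-O libraries, SLC1A4 with PD-L1si without IFNγ passed without Cnsi replicate 2 (-0.51) or 3 (-0.50), and SLC3A1 with IFNγ in PD-L1si cells passed without PD-L1si replicate 1 (-0.54). The number for PD-L1si without IFNγ in 786-O libraries was 2 without Cnsi replicate 2 or 3 or PD-L1si replicate 2, and the difference between lines in PD-L1si was 2 without A498 Cnsi IFNγ replicate 2, A498 PD-L1si IFNγ replicate 1 or 786-O PD-L1si IFNγ replicate 3.

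Signs turned only for values that had not passed. SLC3A1 with IFNγ in Cnsi cells labelled A498 was 0.0057 with RLE factors and 0.0041 with DESeq2, and SLC1A3 with IFNγ in PD-L1si cells labelled A498 was -0.00012 without the filter and -0.0094 with protein-coding genes. With a library left out, the ranges in A498 libraries were -0.115 to 0.153 and -0.0781 to 0.109 for SLC1A3 with IFNγ in Cnsi and PD-L1si cells, -0.113 to 0.0716 and -0.0331 to 0.0595 for SLC3A1 likewise, and -0.256 to 0.882 for SLC36A2 with PD-L1si without IFNγ. In 786-O libraries they were -0.0662 to 0.232 for SLC1A3 and -0.0200 to 0.122 for SLC3A1 with PD-L1si without IFNγ, -0.0625 to 0.0958 for SLC3A1 and -0.0392 to 0.0793 for SLC7A5 with PD-L1si under IFNγ, and -0.0804 to 0.0281 for SLC1A4 with IFNγ in Cnsi cells.

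Libraries with the same number deviated together with a correlation over 0.1 in 2 of 18 pairs in A498 (-0.0780 to 0.195) and in 5 of 18 pairs in 786-O libraries (-0.238 to 0.246). The mean correlation was 0.038 for like and -0.019 for unlike numbers in A498, and 0.042 and -0.021 in 786-O libraries. The samples were not treated as paired, but this check cannot show that no pairing exists. With the replicate block the numbers were 12, 13, 6, 4 and 1 in A498 and 6, 6, 1, 3 and 0 in 786-O libraries, and 9 and 1 for the differences between lines, and no call of a transporter changed.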
